A study of Homo sapiens with 28 samples.

Results

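Dimethylation of lysine 36 on histone H3 (H3K36me2) was mapped by chromatin immunoprecipitation and sequencing (ChIP-seq) in wild-type U2OS cells, an osteosarcoma line, and the question was where along chromosomes and genes the mark differed after UV light. The cells had the wildtype genotype and were either left without UV (noUV) or taken 3 h after 20 J/m2 of UV-C. The results rest on 4 of the 10 peak lists of the series, chosen by their labels: 2 biological replicates without UV and 2 at 3 h. The other 6 lists come from ASH1L knockout U2OS cells transfected with the carboxy-terminal domain (CTD) of ASH1L, precipitated through a Flag tag, and serve only for a comparison at the end. Each list held 500000 peaks, 2000000 in the 4 lists, so that fewer peaks in one region mean more in another by construction. All libraries came from a single cell line, and the DNA of both conditions was treated with a lesion repair mix before sequencing. The lists give no read depth, and shares of the genome were compared, not absolute amounts of the mark.

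H3K36me2 is written mainly by NSD1, NSD2, NSD3 and ASH1L and removed by KDM2A and KDM2B, whereas SETD2 adds the third methyl group inside transcribed genes. The mark typically forms broad domains across intergenic regions and gene bodies and thins out at the starts of active genes. UV-C joins neighbouring pyrimidines, most often adjacent thymines, into dimers that nucleotide excision repair removes. Peak lists hold no expression values, so the cell line could not be checked by marker genes. The peaks were thinner at gene starts, though not there alone: in protein-coding genes of 20 kb or more, the first 1 kb had 96.6 and 108 peaks per Mbp without UV and 73.3 and 75.5 at 3 h, against 185 and 189, and 160 and 161, in the stretch from 5 to 1 kb before the start. The last 1 kb of the same genes had 88.1 and 91.6 peaks per Mbp without UV and 78.7 and 77.5 at 3 h, so these values do not single out gene starts and are no check of the mark.

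Sites with a peak in both replicates of one condition and in neither list of the other numbered 36794 without UV and 33529 at 3 h, while 191535 sites had a peak in all 4 lists. In their central 200 bases, the sites found without UV alone had a mean GC content of 49.2% and 28.7 adjacent TT or AA letters, and those found at 3 h alone had 44.2% and 34.3. Sites present in all lists lay between, at 46.7% and 31.4. The GC content of the genome, 40.9%, was below that of each kind of site. Bases under peaks held 15.6 and 15.4 TT or AA pairs per 100 bases without UV and 16.1 and 16.0 at 3 h. The genome held more, at 19.6. The part of GC content in these differences was not tested. Of the sites found without UV alone 50.5% were centred in protein-coding genes, against 41.3% of those found at 3 h alone and 38.4% of those in all lists. Such genes made up 44.7% of the ungapped genome. These values describe sites that the peak lists themselves chose and carry no test.

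2 of the sites found at 3 h alone are shown to put letters beside these means. They are the sites of highest fold enrichment in the weaker replicate. Their bins are those with the largest rise in peak density, among the called bins described further on, that held such a site. The central 200 bases of hg38 are printed on the plus strand, and capitals mark TT and AA, which are adjacent thymines on one strand or the other. TT and AA were searched as written, each is the other on the opposite strand, and overlapping matches were counted. At least one match was present in 99.96% of the sites found without UV alone and in 99.99% of those found at 3 h alone.
3 h site 1, chr21:12987466-12987665: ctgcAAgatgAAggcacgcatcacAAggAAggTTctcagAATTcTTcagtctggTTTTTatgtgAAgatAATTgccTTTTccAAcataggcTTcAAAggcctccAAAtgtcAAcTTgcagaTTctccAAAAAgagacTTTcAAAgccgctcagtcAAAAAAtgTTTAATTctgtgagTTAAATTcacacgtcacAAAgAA
3 h site 2, chrX:34484279-34484478: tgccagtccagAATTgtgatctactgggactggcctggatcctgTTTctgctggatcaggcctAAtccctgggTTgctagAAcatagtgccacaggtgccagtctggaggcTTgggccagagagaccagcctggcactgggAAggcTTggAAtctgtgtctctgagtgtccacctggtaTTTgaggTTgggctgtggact
Both sites lay outside protein-coding genes. Their bins held 2 and 4 sites of this kind and had few peaks. Coverage at 3 h was 0.504% and 0.477% in the chr21 bin and 0.685% and 0.929% in the chrX bin. Repeats and read mapping at these sites were not examined. The 3 h site 1 was 622 kb from POTED, with 39% GC and 51 TT or AA pairs, and its peaks had a fold enrichment over input of 2.08 and 1.76 in the 2 replicates. The 3 h site 2 was 143 kb from TMEM47 and differed from the mean of its kind, with 55.5% GC, 14 pairs and fold enrichments of 1.77 and 1.77.

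The 3 h lists held fewer wide peaks. Peaks of 5 kb or more numbered 4133 and 3297 without UV and 1961 and 2001 at 3 h, which was 46.7% fewer on average. Those of 2 to 5 kb numbered 41753 and 36991 against 31859 and 32889, and those of 1 to 2 kb 102787 and 100351 against 91267 and 95710. The conditions did not overlap in these 3 classes. They overlapped below 1 kb, with 106122 and 99823 against 123825 and 104939 peaks under 300 bp. The mean width was 899 bp ± 24.3 (SD, n = 2) without UV and 815 bp ± 18.4 (SD, n = 2) at 3 h, and the share of the ungapped genome under a peak was 15.4% ± 0.417 and 14.0% ± 0.315 (SD, n = 2), a log2 ratio of -0.14. The median fold enrichment of a peak was 1.88 and 1.85 without UV and 1.89 and 1.82 at 3 h, with overlapping conditions. In 1-Mb bins of 44 to 48% GC it was lower at 3 h without overlap (1.853 and 1.832 against 1.828 and 1.761). The same held at 48% GC or more (1.837 and 1.819 against 1.799 and 1.734). It overlapped in the classes of lower GC content and in all classes of gene density. The bases under peaks had a GC content of 47.0% and 47.5% without UV and 46.2% and 46.2% at 3 h, against 40.9% of the genome.

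Chromosomes differed in the direction of the change. Peak density, the number of peaks per Mbp of ungapped sequence, fell on 7 of 23 chromosomes (30.4%) and rose on 5 (21.7%) by limma with Benjamini-Hochberg adjustment at 0.05. The largest fall was on chromosome 19, which has the most genes per Mbp (25.3) and the highest GC content (47.9%). Its density was 97.98 and 115 peaks per Mbp without UV and 66.2 and 68.1 at 3 h (log2 -0.66, SE 0.088, adjusted p = 0.028 by limma). Chromosome 22 had 143 and 158 against 107 and 109 peaks per Mbp (log2 -0.48, SE 0.053, adjusted p = 0.028 by limma). Chromosome 17 had 152 and 163 against 132 and 133 (log2 -0.25, SE 0.040, adjusted p = 0.028 by limma). The other falls, on chromosomes 16, 20, 15 and 1, ran from -0.23 to -0.043 on the log2 scale.

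The rises were smaller. Chromosome 4, with the lowest GC content (38.2%) and 3.99 genes per Mbp, had 181 and 173 peaks per Mbp without UV and 194 and 192 at 3 h (log2 0.12, SE 0.029, adjusted p = 0.037 by limma). Chromosome 8 had 211 and 208 against 221 and 223 (log2 0.084, SE 0.014, adjusted p = 0.028 by limma). Chromosome 13 had the next highest value and did not pass, with 132 and 125 against 136 and 132 (log2 0.062, SE 0.034, adjusted p = 0.20 by limma). Chromosomes 3, 5 and 14 passed, at 0.054, 0.047 and 0.041.

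**Figure D1:**
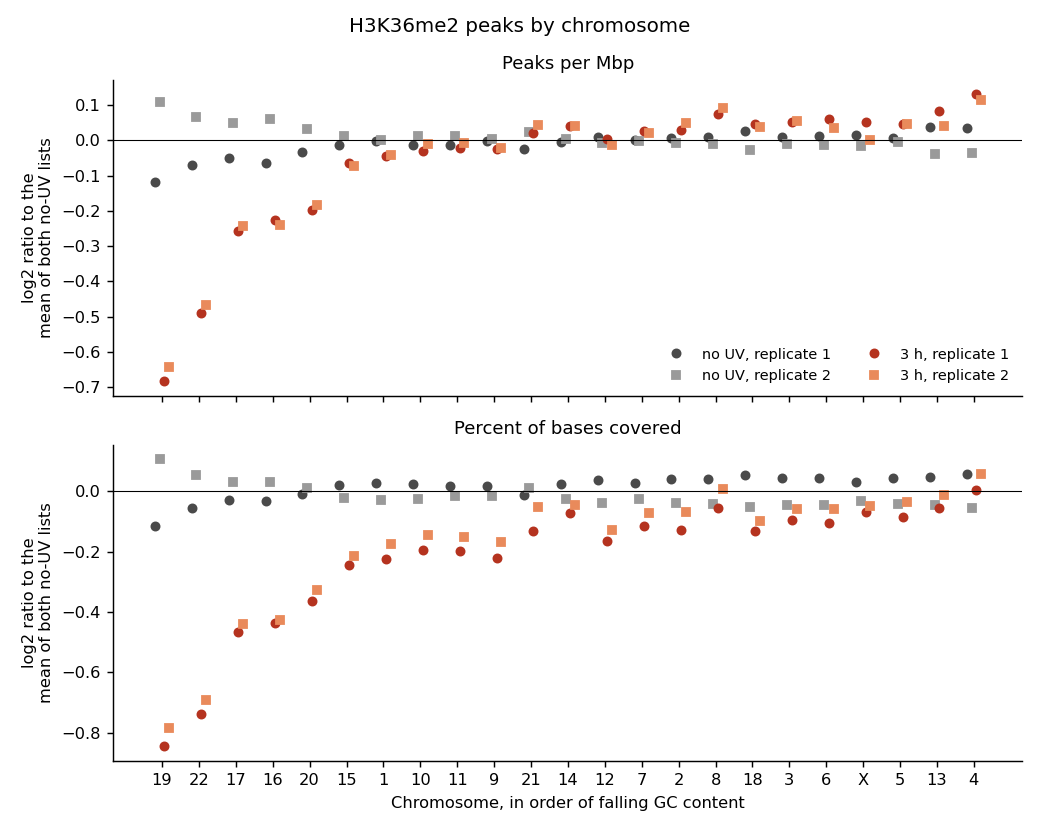
Log2 ratio of each list to the mean of both noUV lists for every chromosome, in order of falling GC content, for peaks per Mbp (above) and percent of bases covered (below), with 1 point for each list. The 3 h points lie lowest on chromosomes 19 and 22, where the noUV replicates are also apart from each other (97.98 and 115 peaks per Mbp on chromosome 19).

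Without a test, density was lower in both 3 h lists than in either noUV list on 8 chromosomes (34.8%) and higher on 10 (43.5%). In percent of bases covered, 19 chromosomes (82.6%) were lower in this sense, 0 (0.0%) were higher, and chromosomes 4, 5, 8 and 13 overlapped. Coverage of chromosome 19 was 9.09% and 10.6% without UV and 5.48% and 5.71% at 3 h, that of chromosome 22 was 15.9% and 17.2% against 9.93% and 10.2%, and that of chromosome 4 was 14.0% and 13.0% against 13.6% and 14.0%. Peaks had a lower mean width at 3 h on each of the 23 chromosomes, with log2 ratios from -0.24 on chromosome 22 to -0.085 on chromosome X. The number of chromosomes that rose in density was 2 without noUV replicate 2, 0 without 3 h replicate 1 and 1 without 3 h replicate 2. With only the peaks listed at or above 2 on the -log10 p scale, 4 chromosomes fell, 0 rose, and chromosome 1 had a log2 change of 0.010. A value of 2 is the p of 0.01 that the study's methods name for calling. Whether that cutoff applied to the listed p is not given. These peaks numbered 221366 and 204043 without UV and 224811 and 221478 at 3 h, so the totals were no longer equal.

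The contrast was also present at the scale of 1 Mb. Of 2921 bins with at least 50% ungapped sequence, 210 (7.19%) fell and 130 (4.45%) rose in peak density, and 693 (23.7%) fell and 56 (1.92%) rose in percent covered, by limma with Benjamini-Hochberg adjustment. With coverage scaled to the same total in every list, 503 bins fell and 391 rose, and the median log2 change of bins with a peak moved from -0.054 to 0.078. Bins that fell in density had a median of 48.6% GC and 14.5 protein-coding gene starts, and 79 of them held 20 starts or more. Bins that rose had a median of 36.1% GC and 1 start, and 54 of them held none. In coverage, the medians were 45.9% GC and 12 starts for bins that fell and 35.98% GC and 0.50 starts for those that rose. Both measures fell in 206 bins and rose in 40.

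The numbers of bins called changed with the peaks and lists used. With only the peaks at or above 2 on the -log10 p scale, 204043 to 224811 of the 500000 in each list, 1 bin fell and 1 rose in density, and 293 fell and 8 rose in coverage. In density, 2 bins fell and 1 rose without noUV replicate 1, 1 fell and 1 rose without noUV replicate 2, 0 fell and 1 rose without 3 h replicate 1, and 1 fell and 3 rose without 3 h replicate 2. In coverage, 436 fell and 18 rose without noUV replicate 2, 236 and 14 without 3 h replicate 1, and 303 and 12 without 3 h replicate 2. The 2921 bins include 52 with no peak in any list, whose spread is 0. Fitted without them, an alternative chosen after seeing the data, 530 bins fell and 426 rose in density.

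Without a test, density did not overlap between the conditions in 877 bins (30.0%) that were lower and 1000 (34.2%) that were higher at 3 h, and coverage in 1237 (42.3%) and 485 (16.6%). In 497 bins the mean density was higher while the mean coverage was lower, and in 37 the reverse held. The longest unbroken run of bins with lower coverage in both 3 h lists was chr1:1-49000000, which spans 49 bins and 672 protein-coding gene starts at a mean GC content of 47.5%. It had 16.0% and 17.1% of bases covered without UV and 10.9% and 11.1% at 3 h. The longest run of higher coverage was chr7:7000001-20000000, 13 bins with 37 gene starts and 36.4% GC, with 20.9% and 19.3% against 23.02% and 24.3%.

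Among bins that passed, did not overlap and moved alike in coverage, the 5 with the largest fall in density lay near chromosome ends and were rich in genes. In chr12:132000001-133000000, whose 14 gene starts include POLE, the catalytic subunit of DNA polymerase epsilon, density was 46.0 and 72.1 peaks per Mbp without UV and 17.02 and 17.02 at 3 h (log2 -1.70, SE 0.28, adjusted p = 0.037 by limma). In chr19:58000001-58617616, with 27 gene starts, many of them zinc finger genes, and TRIM28, a corepressor that zinc finger proteins recruit, it was 56.0 and 65.8 against 19.7 and 18.1 (log2 -1.63, SE 0.21). In chr19:1000001-2000000, with 39 gene starts including the kinase STK11 and the lipid peroxide reductase GPX4, it was 116 and 156 against 44 and 44 (log2 -1.59, SE 0.20). By the rule of choice all 3 bins were lower in both 3 h lists. Their noUV replicates were farther apart than their 3 h replicates.

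The same held for the remaining pair. In chr16:1000001-2000000, with 44 gene starts including the calcium channel gene CACNA1H, density was 98 and 120 against 37 and 37 peaks per Mbp (log2 -1.53, SE 0.20). In chr8:144000001-145000000, with 47 gene starts including HSF1, the regulator of the heat shock response, it was 107 and 136 against 43 and 40 (log2 -1.52, SE 0.20). Apart from the chr12 bin, the adjusted p of these bins was 0.035 by limma. The GC contents of the 5 bins ran from 50.3% to 59.1%. By the rule of choice coverage fell in all 5 bins, for example from 12.3% and 17.5% to 4.19% and 4.15% in chr19:1000001-2000000.

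Among bins chosen by the same rules, the 5 with the largest rise were nearly empty of peaks in all lists. In chr21:12000001-13000000, with no gene start, density was 1.05 and 2.11 peaks per Mbp without UV and 8.42 and 6.32 at 3 h (log2 1.72, SE 0.22, adjusted p = 0.035 by limma). In chr19:24000001-25000000, which holds the start of the zinc finger gene ZNF254, it was 0 and 0 against 1.06 and 1.06, so that the call rests on 1 peak in each 3 h list and gives no ratio. In chr20:28000001-29000000, with no gene start, it was 3.10 and 2.07 against 5.17 and 6.202 (log2 0.91, SE 0.15, adjusted p = 0.037 by limma). By the rule of choice the groups did not overlap in these bins, and no list covered 1% of their bases.

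Both other rises were on chromosome X. In chrX:34000001-35000000, with 3 gene starts, density was 9 and 10 against 18 and 17 peaks per Mbp (log2 0.82, SE 0.12, adjusted p = 0.035 by limma). In chrX:127000001-128000000, with none, it was 8 and 10 against 15 and 15 (log2 0.69, SE 0.13, adjusted p = 0.043 by limma). Their coverage was also under 1% in every list. With only the peaks at or above 2 on the -log10 p scale, the density of chrX:127000001-128000000 had a log2 change of -0.37.

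Across the 2869 bins with a peak, the change went with base composition and gene number. The log2 change of density had a Pearson correlation of -0.82 with GC content and -0.59 with the number of protein-coding gene starts, and that of coverage -0.88 and -0.64. Neighbouring bins, 2823 pairs, had correlated changes, with r = 0.67 for density and 0.75 for coverage. The bins share their 4 libraries and the same base composition in each, so these values are descriptions. The difference between the noUV replicates, replicate 1 minus replicate 2, was itself related to GC content, with r = -0.47 for density and -0.57 for coverage, whereas for the 3 h replicates r was -0.11 and 0.068. The part of base composition in the difference between conditions was not tested.

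**Figure D2:**
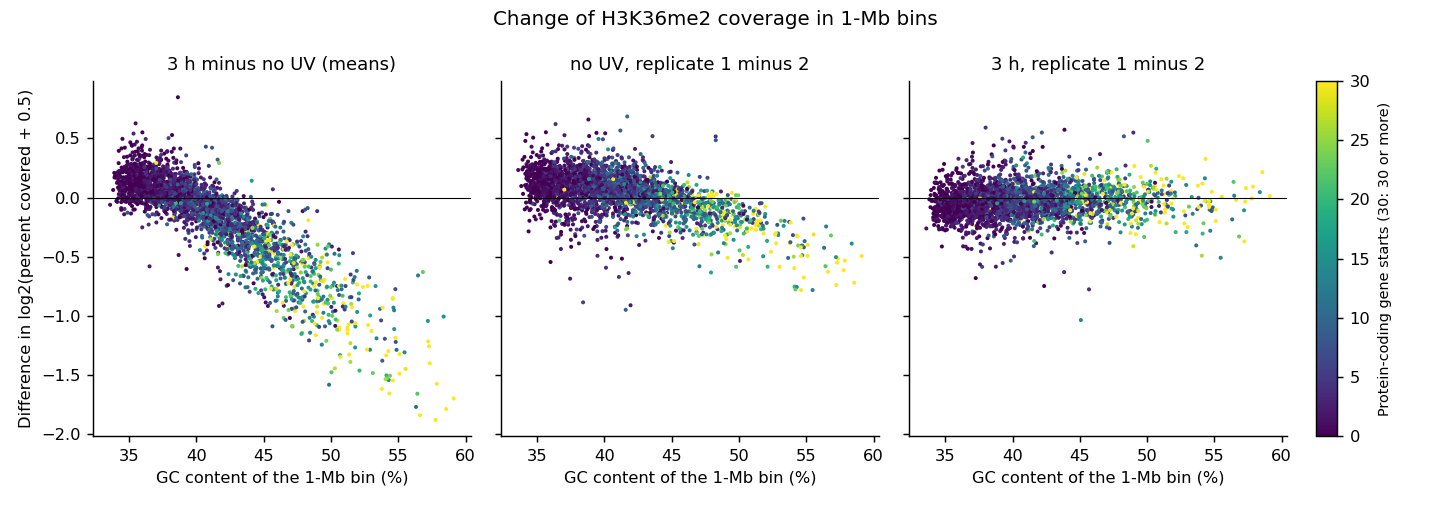
Each point is a 1-Mb bin with a peak in at least 1 list (2869 bins), placed by GC content in percent and by a difference in log2(percent covered + 0.5), and coloured by the number of protein-coding gene starts. The panel of 3 h minus noUV slopes down with GC content (r = -0.88), the panel of the noUV replicates less so (r = -0.57), and that of the 3 h replicates is flat (r = 0.068).

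The change was ordered by gene density. In 438 bins with no protein-coding gene start, density was 146 and 138 peaks per Mbp without UV and 161 and 160 at 3 h (log2 ratio 0.17). With 1 to 2 starts it was 189 and 183 against 200 and 201 (0.11), and with 3 to 5 starts 187 and 185 against 191 and 191 (0.038). These 3 classes were higher at 3 h, with no overlap. With 6 to 9 starts it was 180 and 182 against 176 and 175 (-0.046), and with 10 to 19 starts 161 and 169 against 144 and 145 (-0.20). In 227 bins with 20 starts or more it was 133 and 147 against 103 and 104 (-0.45). These classes were lower at 3 h, again with no overlap. Percent covered ran from 11.02% and 10.1% against 11.2% and 11.7% in gene-free bins (log2 ratio 0.11) to 13.5% and 14.7% against 8.76% and 8.90% in the most gene-dense bins (-0.68).

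The log2 ratio of density in gene-dense to that in gene-free bins was -0.13 and 0.093 in the noUV lists and -0.65 and -0.62 in the 3 h lists. The difference of -0.62 had p = 0.333 in a two-sided exact permutation test, the smallest p that 2 lists against 2 allow, so no single value of this kind could pass 0.05. In the middle tertile of bins by GC content the difference was -0.11, from 20 gene-dense and 104 gene-free bins, with the same p in the exact permutation test.

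By GC content alone, bins under 37% had 174 and 162 peaks per Mbp without UV and 194 and 191 at 3 h (log2 ratio 0.20), and bins of 48% or more had 134 and 155 against 90.9 and 94.0 (-0.65). The classes between followed in order, with 0.14 at 37 to 39%, 0.056 at 39 to 41%, -0.064 at 41 to 44% and -0.28 at 44 to 48%. Within a class of GC content the ratio varied less with gene number. At 37 to 39% GC it was 0.16 with 0 to 2 starts, 0.13 with 3 to 9 and 0.094 with 10 or more, and at 41 to 44% it was -0.027, -0.056 and -0.13. At 44 to 48% the order was broken, with -0.28, -0.23 and -0.32.

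**Figure D3:**
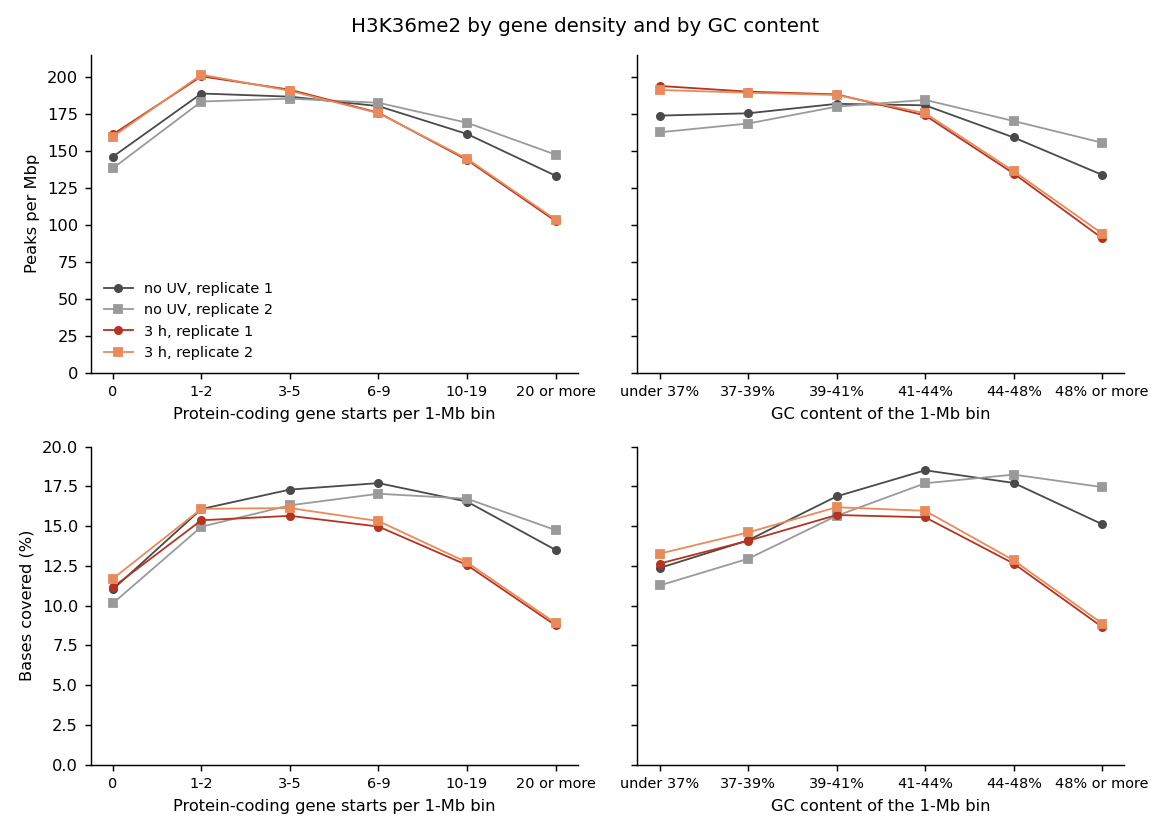
Peaks per Mbp (above) and percent of bases covered (below) in 1-Mb bins grouped by protein-coding gene starts (left) and by GC content (right), with a line for each list. In density the 3 h lists lie above the noUV lists in gene-free bins (161 and 160 against 146 and 138) and below them in bins with 20 starts or more (103 and 104 against 133 and 147).

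Windows of 10 kb allowed the same split inside and outside protein-coding genes. Under 36% GC, the log2 ratio of density was 0.21 inside genes and 0.22 outside. At 45 to 50% GC it was -0.32 inside and -0.22 outside, and at 55% or more -1.06 and -0.67. In the last class the noUV replicates had 140 and 180 peaks per Mbp inside genes, farther apart than the 74.3 and 78.7 at 3 h, and coverage was 16.7% and 22.3% against 7.18% and 7.38%. The ratio of density was lower inside genes than outside in every class of GC content. It was 0.13 inside and 0.15 outside at 36 to 40% GC, and -0.059 and -0.0063 at 40 to 45%. In density the conditions overlapped only outside genes at 40 to 45% GC. The change of mean peak width was ordered by gene density. It was 755 and 734 bp without UV and 692 and 733 bp at 3 h in gene-free bins. In bins with 20 starts or more it was 1014 and 1001 bp against 854 and 860 bp.

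Along the 11618 protein-coding genes of 20 kb or more, density was lower at 3 h at both ends of genes and close to equal in the middle. From the start to 5 kb inside it was 148 and 155 peaks per Mbp without UV and 117 and 117 at 3 h. Between 40% and 60% of gene length it was 163 and 165 against 163 and 161, and in the last 5 kb 107 and 111 against 89.2 and 89.0. Coverage was lower at 3 h in the middle as well, at 14.4% and 14.2% without UV and 12.5% and 12.6% at 3 h. In density, the log2 ratio of start to middle was -0.14 and -0.090 without UV and -0.48 and -0.46 at 3 h, a difference of -0.35. That of end to middle was -0.61 and -0.58 against -0.87 and -0.85, a difference of -0.27. Both differences had p = 0.333 in the two-sided exact permutation test, the smallest possible. The start and end windows took the same 5 kb of each gene, whereas longer genes weighed more in the middle. These differences therefore mix position with gene length. In windows of 5% of gene length, the log2 ratio of density was -0.17 from 0 to 5%, -0.00088 from 45 to 50% and -0.093 from 95 to 100%. It was -0.14 from 100 to 90 kb before the start and from 90 to 100 kb beyond the end.

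**Figure D4:**
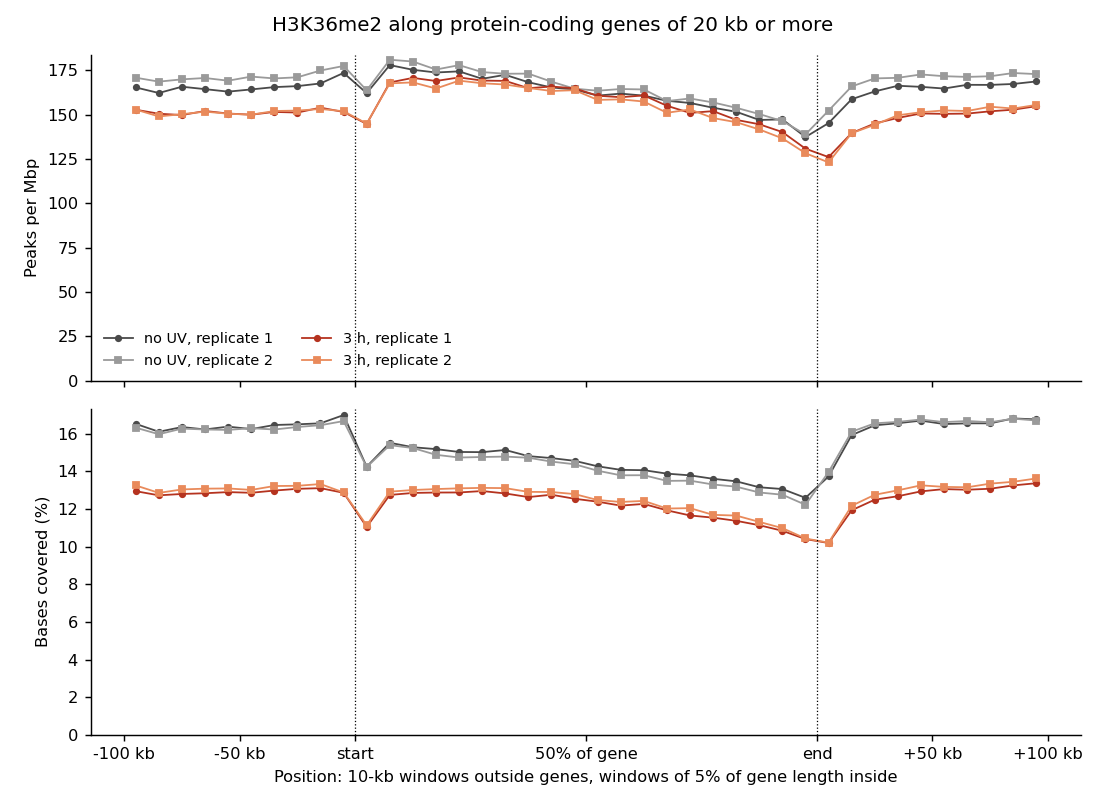
Peaks per Mbp and percent of bases covered along 11618 protein-coding genes of 20 kb or more, in 10-kb windows outside genes and windows of 5% of gene length inside, with a line for each list. The 4 lines meet in density near the middle of genes (164 to 165 peaks per Mbp between 45% and 50% of gene length) and part towards both ends and the flanks.

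By distance, the lowest ratio of density was in the first 1 kb after the start (log2 -0.46), where GC content was 57.5%. In the 1 kb before the start density was 136 and 134 peaks per Mbp without UV and 98.98 and 109 at 3 h (-0.37), and from 1 to 5 kb inside 161 and 167 against 128 and 128 (-0.36). The ratio was nearer to 0 farther inside, at -0.24 from 5 to 10 kb and -0.20 from 10 to 20 kb. Before the start it was -0.22 from 5 to 1 kb, -0.16 from 20 to 5 kb and -0.15 from 50 to 20 kb. The stretches from 1 to 5 kb inside and from 5 to 1 kb before the start had similar GC contents of 44.2% and 43.8%. Their coverage was 14.6% and 15.3% without UV against 9.69% and 9.85% at 3 h inside (log2 -0.62), and 17.9% and 17.7% against 13.4% and 13.4% before the start (-0.41). The profile at gene ends was flatter, with a ratio of density of -0.20 in the 1 kb and -0.30 from 1 to 5 kb inside, and -0.19 and -0.26 at the same distances beyond the end.

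The 1497 genes of 200 kb or more showed the start by itself, since their interior lies far from it. Coverage of their first 1 kb was 10.4% and 10.7% without UV and 6.75% and 7.42% at 3 h (log2 -0.57). From 1 to 5 kb it was 13.6% and 13.4% against 10.3% and 10.8% (-0.35), and from 5 to 10 kb 15.5% and 15.1% against 13.3% and 12.9% (-0.23). From 50 to 100 kb it was 16.9% and 16.1% against 15.3% and 15.7% (-0.093), above the genome-wide ratio of -0.14. GC content went from 57.8% in the first 1 kb to 40.2% at 5 to 10 kb.

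Gene length separated the conditions in the same direction. Coverage of genes under 5 kb was 15.4% and 17.9% without UV and 9.16% and 10.1% at 3 h (log2 -0.79), and that of genes of 5 to 20 kb 12.0% and 13.6% against 6.97% and 7.06% (-0.86). The ratio was -0.62 at 20 to 50 kb, -0.44 at 50 to 100 kb, -0.27 at 100 to 200 kb and -0.13 at 200 to 500 kb. In the 322 genes of 500 kb or more the conditions overlapped in coverage, at 15.3% and 14.3% against 14.5% and 15.0%, while their density was higher, at 185 and 180 against 197 and 196 peaks per Mbp. The log2 ratio of density in these long genes to that in genes under 20 kb was 0.62 and 0.38 in the noUV lists and 1.19 and 1.16 in the 3 h lists. The difference of 0.68 had p = 0.333 in the two-sided exact permutation test. Among genes in the middle tertile of GC content, an alternative chosen after seeing the data, it was 0.24, from 56 long and 2430 short genes.

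Length and GC content overlap, since GC content was 53.7% in genes under 5 kb and 38.7% in those of 500 kb or more. Among genes under 41% GC, the log2 ratio of coverage was 0.016 under 20 kb, -0.033 at 20 to 100 kb and 0.042 at 100 kb or more, with overlapping conditions in each. Among genes of 41 to 48% GC it was -0.42, -0.41 and -0.26, and among those of 48% or more -1.18, -0.99 and -0.91, with no overlap.

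**Figure D5:**
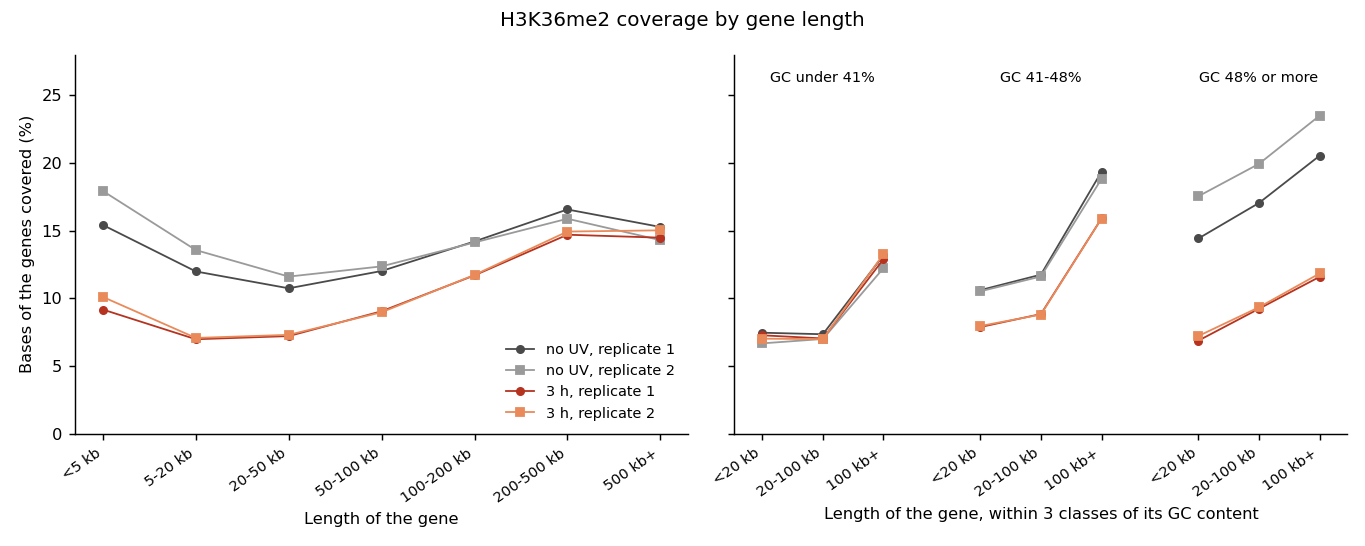
Percent of bases covered in protein-coding genes by gene length (left) and by gene length within 3 classes of GC content (right), with a point for each list. Each value pools the genes of a class. The conditions are farthest apart in short and GC-rich genes (log2 -1.18 under 20 kb at 48% GC or more). They overlap in the class of 500 kb or more and in each length class under 41% GC.

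Of the 11618 genes of 20 kb or more, 64 (0.551%) fell and 9 (0.0775%) rose in percent covered by limma with Benjamini-Hochberg adjustment, while 2685 had an unadjusted p under 0.05. Without a test, both 3 h lists lay below both noUV lists in 4941 genes (42.5%) and above them in 929 (8.0%). Of genes of 48% GC or more 76.8% were lower in this sense and 0.334% higher, and of those under 37% GC 13.7% and 20.6%. With only the peaks at or above 2 on the -log10 p scale, 0 genes fell and 0 rose by limma. The calls also moved with single lists: 635 genes fell and 8 rose without noUV replicate 1, 446 and 4 without noUV replicate 2, 0 and 121 without 3 h replicate 1, and 0 and 114 without 3 h replicate 2. With the 900 genes that had no peak in any list left out, chosen after seeing the data, 1199 fell and 21 rose, and 31 of the 73 calls remained.

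Among genes that passed and did not overlap, the 8 with the largest fall kept a remnant of coverage or lost it. PRX, which encodes the myelin protein periaxin (chr19:40393766-40414793), was covered over 21.7% and 25.3% of its length without UV and 2.30% and 2.28% at 3 h (log2 -2.89, SE 0.13, adjusted p = 0.047 by limma). LHX9, a LIM homeobox factor (chr1:197911902-197935478), had 20.9% and 21.1% against 2.32% and 2.002% (log2 -2.80, SE 0.13, adjusted p = 0.047 by limma). CHST12, a chondroitin sulfotransferase (chr7:2403588-2448484), had 21.8% and 23.2% against 3.33% and 3.76% (log2 -2.37, SE 0.10, adjusted p = 0.043 by limma). That the conditions lay apart in these 3 genes follows from how the genes were chosen.

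SULT4A1, a sulfotransferase of the brain, had 22.8% and 21.5% against 3.73% and 4.09%, and FAM53B 21.9% and 23.9% against 4.96% and 4.65%. VASH1, which encodes the tubulin carboxypeptidase vasohibin, had 39.498% and 42.5% against 10.3% and 10.99% (log2 -1.85, SE 0.068, adjusted p = 0.043 by limma). CARD10, a scaffold of NF-kappaB signalling, and TVP23B had 3.44% and 3.68%, and 3.05% and 3.05%, without UV and no covered base at 3 h, so that no ratio is given. All 8 genes passed the test, and 6 of them had a GC content of 50.4% to 57.1%, LHX9 and TVP23B being at 43.1% and 41.1%.

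Among genes that passed and did not overlap, the 8 with the largest rise had no covered base in either noUV list, and no ratio is given for them. GSKIP, a GSK3-binding protein, had 2.56% and 2.87% at 3 h, SMYD4 2.07% and 2.31%, RXYLT1, a glycosyltransferase of dystroglycan, 1.78% and 1.85%, and RPL31, a ribosomal protein, 1.05% and 0.954%. The gene ENSG00000285602, LDOC1, MSANTD2 and ELP2, an Elongator subunit, were under 1% in both 3 h lists. Their adjusted p ran from 0.040 to 0.044 by limma. These calls rest on a few peaks in genes that had none without UV.

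Genes of 3 lists were read against all 11618 genes tested for counts, of which 900 had no peak, and against the 10718 with a peak for the median log2 change, which was -0.31. Of 19 genes that write, remove or read H3K36 methylation, 17 were long enough to test and 15 had a peak. None passed the test, against 0.551% of all genes that fell, 8 were lower and 1 higher with no overlap, against 42.5% and 8.0% of all genes, and the median of those with a peak was -0.66. DNMT3A, the de novo DNA methyltransferase that binds H3K36me2, had 18.1% and 18.7% of its length covered without UV and 3.21% and 2.76% at 3 h (log2 -2.29, SE 0.13, adjusted p = 0.052 by limma). Its relative DNMT3B had 7.27% and 8.04% against 3.63% and 0%, and the demethylase KDM4B 22.9% and 29.8% against 6.84% and 9.35%. These genes are GC-rich, at 53.4%, 49.4% and 57.3%. NSD2 was the one gene of the list that was higher, with 0.281% and 0.557% against 1.22% and 1.02%, and it did not pass (adjusted p = 0.16 by limma).

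Of 36 genes of nucleotide excision repair, 30 were tested and 26 had a peak. None of the 30 passed, 10 were lower and 1 higher with no overlap, against 42.5% and 8.0% of all genes tested, and the median of those with a peak was -0.54. DDB1, the partner of the UV damage sensor DDB2, had 5.98% and 5.80% covered without UV and none at 3 h (adjusted p = 0.053 by limma). ERCC2, a helicase of the repair complex TFIIH, had 9.63% and 2.30% against none, and XPC, which recognises damage across the genome, 0.583% and 4.47% against none. The noUV replicates of ERCC2 and XPC were far apart. Of 28 genes of the UV and p53 response, 14 were tested and 11 had a peak. None of the 14 passed, 2 were lower and 0 higher with no overlap, against the same 42.5% and 8.0%, and the median of those with a peak was 0.030. The other 14 genes of that list were under 20 kb and had no test, and of the 9 with a peak all 9 had a lower mean coverage at 3 h, 8 had no covered base in either 3 h list and 7 did not overlap between the conditions. The same shares over all genes under 20 kb were not counted, so these counts do not set the list apart from other short genes. Coverage of all genes of 5 to 20 kb had a log2 ratio of -0.86, and that of all genes under 5 kb -0.79. The checkpoint kinase gene CHEK2 had 4.32% and 2.92% against 0.887% and 1.17% (adjusted p = 0.17 by limma), the phosphatase gene PPM1D 11.3% and 6.29% against 5.23% and 5.39%, and the stress gene SESN2 1.11% and 3.58% against 2.98% and 0%, with overlap.

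The CTD lists allowed the UV change of H3K36me2 to be set beside that of another factor. The log2 ratio of density in gene-dense to that in gene-free bins was 1.35, 1.07 and 0.66 in the 3 CTD lists without UV and 0.97, 1.06 and 1.49 in the 3 at 3 h, with overlap. In the 4 H3K36me2 lists it was -0.13, 0.093, -0.65 and -0.62, with none. The interaction of assay and UV, fitted by limma over all 10 lists and 2921 bins, passed in 0 bins (0.0%), with a smallest adjusted p of 0.068 and 353 bins at an unadjusted p under 0.05. With bins without a peak left out, chosen after seeing the data, 35 bins passed, in each of which H3K36me2 changed more downwards. The CTD lists alone gave 0 calls by limma, with 19 bins at an unadjusted p under 0.05. The 2 assays differ in genotype, antibody and control library, which cannot be told apart from the factor.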

How the data were processed

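H3K36me2 ChIP-seq of wild-type U2OS cells was analysed from 4 peak lists, 1 for each biological replicate. The authors trimmed reads (Trim Galore 0.6.5), aligned them to hg38 (BWA 0.7.17-r1188), filtered them, pooled single-end and paired-end runs of a replicate and called broad peaks with MACS2 2.2.7.1 at p 0.01 against pooled inputs. The submitters' notes also name SAMtools 1.7 and bedtools 2.29.2. The deposited lists hold peak positions, the fold enrichment over input (a ratio) and -log10 p and q values; each was ordered by -log10 p and held 500000 peaks on chromosomes 1 to 22 and X. The lowest -log10 p of a list was 1.34 to 1.42, and 204043 to 224811 peaks of each list, fewer than 50%, were at 2 or more, a p of 0.01. The sources used here do not say whether the calling cutoff applied to the p listed for a peak. They also do not say how the longer lists of equal length were made. Read depth is not given in the lists, so no counting interval could be computed, and the number of peaks is fixed whatever the depth.

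Peaks were counted by their centre, per Mbp of ungapped sequence, and their union gave percent covered, in 1-Mb bins, chromosomes, windows and protein-coding genes of GENCODE release 44. limma 3.58.1 (R 4.3.3) was fitted with a variance trend to log2(peaks per Mbp + 1) and log2(percent + 0.5) for bins. Genes of 20 kb or more were fitted in the same way to log2(percent + 1). The added constants understate changes of low features. Chromosomes were fitted to log2(peaks per Mbp), with no added constant and no variance trend. All fits had Benjamini-Hochberg adjustment at 0.05. Single values had a two-sided exact permutation test (SciPy 1.17.1). Python 3.11.15, NumPy 2.4.6, pandas 2.3.3 and matplotlib 3.10.9 were used. The bin fit was tested on simulated data of 2921 bins: it called 84 of 100 bins that fell by 1 on the log2 scale, 64 of 100 that rose by 0.5 and 6 of 2721 that did not change. The simulated noise was independent between bins, and the replicate spreads were shuffled across bins. It left out the ties of real replicate differences to GC content and of changes between neighbouring bins. These counts therefore hold for such noise only.

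Named bins were the 5 of largest fall and the 5 of largest rise in density among those that passed, did not overlap and moved alike in coverage. Named genes were the 8 of largest fall and of largest rise among those that passed and did not overlap, with the 3 members of largest change in each gene list; NSD2 was named after its values were seen. Sequences came from chr21:12000001-13000000 and chrX:34000001-35000000 among the bins of largest rise, since the bins between held no such site. Sequences from the bins of largest fall are not reported here. The members and lists were chosen with earlier results of these data known. Alternatives changed the peaks counted, bins, pseudocounts, scaling, the limma prior, the genes and windows, the replicates and the replicate block.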

Additional observations from a re-analysis of the deposited data

How the results depend on the processing

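The 4 single values (gene-dense against gene-free bins, start and end against middle of genes, long against short genes) kept their direction under all alternatives run, but with 2 lists against 2 none could pass. With each replicate left out they ranged from -0.73 to -0.51, -0.38 to -0.33, -0.28 to -0.25 and 0.56 to 0.80. Counts of calls were less stable, and the cause was not tested. Read depth, which the lists do not give, could not be examined. In each list 204043 to 224811 peaks were listed at or above 2 on the -log10 p scale, a p of 0.01. With only these, 1 bin fell and 1 rose in density, and 293 fell and 8 rose in coverage. Of the chromosomes 4 fell and 0 rose, and of the genes 0 fell and 0 rose. All peaks gave 210 and 130 bins in density and 64 and 9 genes. With the 250000 top peaks, 1 bin fell and 0 rose in density, 18 rose in coverage, and 0 genes fell and 0 rose. With robust peaks only, 925 bins fell and 1110 rose in density, 303 rose in coverage, 12 chromosomes rose, and 2815 genes fell and 429 rose; this choice ties the replicates of a condition together. Without features that had no peak (chosen after seeing the data), 530 bins fell and 426 rose in density, 136 rose in coverage, 1199 genes fell and 21 rose, and 35 bins passed in the interaction with CTD. With 10 times the pseudocount 0 bins fell and 1 rose in density, and without a variance trend 0 and 0, with 6 in the interaction. Scaled coverage gave 391 bins that rose and 36 genes that fell. For genes, a pseudocount of 0.5 gave 113 that fell, a minimum of 50 kb 0 and 0, and peaks per Mbp 260 that fell and 34 that rose.

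Replicate numbers were not taken to pair the lists: replicate differences of the conditions correlated at 0.088 in density and 0.025 in coverage over 2869 bins, there are only 2 pairs, and the labels mark no shared batch. With the replicate block, 0 bins fell and 1 rose in density, 547 fell and 28 rose in coverage, 4 chromosomes fell and 1 rose, and 0 genes fell and 0 rose. The 4 single values were -0.62, -0.35, -0.27 and 0.68 with the block, where the smallest possible p is 0.5 in the exact permutation test. With each replicate left out, where the lone list is assumed to vary like the other group, bins that fell numbered 0 to 2 in density and 236 to 560 in coverage, bins that rose 1 to 3 and 12 to 83, chromosomes 5 to 7 and 0 to 7, and genes 0 to 635 and 4 to 121.

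Peaks at or above 2 on the -log10 p scale numbered 221366 and 204043 without UV and 224811 and 221478 at 3 h, a log2 ratio of 0.069. Density counted from them thus had unequal totals, and the part of this in the reversals was not tested. The direction reversed in density for chromosomes 1 (0.010), 9 (0.056), 10 (0.0090), 11 (0.069) and 12 (0.066) with peaks at or above 2 on the -log10 p scale, and for chromosome 12 with robust peaks (0.0021), without noUV replicate 1 (0.0043) and without 3 h replicate 2 (0.0037), the values with each replicate left out running from -0.012 to 0.0043. It reversed for chrX:127000001-128000000 with peaks at or above 2 on the -log10 p scale (-0.37 in density, -0.071 in coverage) and with the top peaks (-0.16 in density), for chrX:34000001-35000000 in coverage under both (-0.13 and -0.066), and for SESN2 without 3 h replicate 2 (0.35; from -1.64 to 0.35 with each replicate left out).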

Other observations

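Genes under 20 kb were too short for the test by gene and are given as values, with no test. Coverage of all genes of 5 to 20 kb had a log2 ratio of -0.86, and that of all genes under 5 kb -0.79. Of the 14 genes of the UV and p53 response under 20 kb, 9 had a peak in at least 1 list, and the mean coverage of all 9 was lower at 3 h, with 8 at 0% in both 3 h lists and 7 without overlap between the conditions. The same shares over all genes under 20 kb were not counted, so these counts do not set the list apart from other short genes. CDKN1A, the cell cycle inhibitor induced by p53, was covered over 24.7% and 14.9% of its length without UV and 2.79% and 0.542% at 3 h. FDXR, a mitochondrial reductase, had 23.9% and 32.7%, BAX, an activator of apoptosis, 10.4% and 15.0%, and BBC3, another, 8.07% and 8.003% without UV, and none of the 3 had a covered base at 3 h. EGR1, an immediate early transcription factor, had 40.1% and 6.46% without UV, which were far apart, and 0% at 3 h. Of 6 genes of nucleotide excision repair under 20 kb, 2 had a peak: PCNA, the sliding clamp, had 2.78% and 11.1% against 1.93% and 2.77%, and XAB2 16.8% and 9.45% against 0%.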
